A study of Mus musculus with 3 samples.

Results

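Neat1, Malat1 and 5 genes for proteins that bind Neat1 RNA in paraspeckles or nearby nuclear bodies (Sfpq, Nono, Pspc1, Tardbp and Matr3) were described in mouse embryonic stem (ES) cells. The 7 genes were chosen by name from the 55536 genes of the deposited gene tables, with the spread of Neat1 between libraries already known. All 7 were found and passed a level of 1 TPM (transcript abundance scaled to a fixed sum per library, a level per unit of transcript length) in every library. The cells were F121-9, a hybrid line from a cross of Cast and 129 mice, at passage 14. Total RNA of 400 ng per library was measured in 3 libraries, which the labels call biological replicates 1 to 3, and all 3 form 1 group with no treatment or second genotype. Nothing in the labels says that the replicates were grown as separate cultures, so their spread, and every p-value drawn from it, may be technical.

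Paraspeckles are nuclear bodies that assemble on Neat1, a long noncoding RNA that stays in the nucleus. Neat1 is made in a short polyadenylated form and in a long form that shares its 5′ end, and the long form is the one that builds the body. The long form and its neighbour Malat1, a long noncoding RNA of nuclear speckles, have no ordinary poly(A) tail: RNase P cuts their 3′ ends in front of a tRNA-like structure, and a triple helix of U-rich and A-rich stretches protects the end. Sfpq, Nono and Pspc1 belong to the DBHS family of RNA-binding proteins that coat Neat1. Human ES cells are known to hold little long Neat1 and few paraspeckles until they differentiate.

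The 3′ ends of the annotated transcripts show what separates these forms, and they are printed 5′ to 3′ on the transcript strand, as DNA letters. All come from the GENCODE M21 transcript sequences on mm10, on the minus strand of chromosome 19. The end of the short form Neat1-202 (chr19:5842307-5842366) holds a poly(A) signal, AATAAA, in capitals.
Neat1-202 end: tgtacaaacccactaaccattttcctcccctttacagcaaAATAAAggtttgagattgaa
The end of the long form Neat1-201 (chr19:5824708-5824809) holds none in its last 40 bases, and the capitals mark its U-rich stretches and its A-rich last 11 bases.
Neat1-201 end: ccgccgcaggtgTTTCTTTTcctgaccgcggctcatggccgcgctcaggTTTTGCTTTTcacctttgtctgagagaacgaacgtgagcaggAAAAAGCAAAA
The matching stretches of Malat1-201 (chr19:5795982-5796077) lie 292 bases before its annotated end, with the same marks.
Malat1-201 near end: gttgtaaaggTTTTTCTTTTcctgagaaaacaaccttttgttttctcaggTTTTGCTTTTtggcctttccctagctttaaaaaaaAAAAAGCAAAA
The annotated end of Malat1-201 itself (chr19:5795690-5795749) carries a poly(A) signal in capitals.
Malat1-201 end: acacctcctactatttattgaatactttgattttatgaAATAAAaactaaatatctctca
On the transcript strand alone, TTTTGCTTTT stood in the last 400 bases of 0.298% of 122312 annotated transcripts of at least that length, and AAAAAGCAAAA in 0.117%. Neat1-201 and Malat1-201 were the 2 transcripts with both. TTTTTCTTTT, which contains the shorter TTTCTTTT of Neat1-201, stood in 1.10% of them, and AATAAA in the last 40 bases of 29.1%. A match of letters describes the annotation and is not a measured end.

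The gene tables held 10425623, 9575747 and 9974983 estimated counts of genes in replicates 1, 2 and 3, so that a count of 0 allowed up to 0.288, 0.313 and 0.301 CPM (counts scaled to library size), for counting error only. The label of ES cells was checked against markers. All 5 pluripotency genes reached 1 TPM in every library, with summed levels of 1970.3, 1713 and 1746 TPM, from Nanog (505), Pou5f1 (495), Zfp42 (425) and Sox2 (279) down to Esrrb (106). None of 7 fibroblast genes did: Col3a1, Postn, Dcn and Lum had 0 counts in every library, and Col1a1, Col1a2 and Thy1 had means of 0.61, 0.267 and 1.06 TPM. Of 13 genes of differentiated cells 7 reached 1 TPM in all libraries, with sums of 40.4, 33.8 and 35.5 TPM over the list, led by Tubb3 (10.6), Krt8 (6.53) and Nes (5.34), with Foxa2 lowest (0.07). As the RNA is from bulk cultures, fewer cells that make an RNA and less RNA per cell cannot be told apart in any value given here.

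Neat1 (ENSMUSG00000092274.3), a lincRNA gene with 4 annotated transcripts over 20771 bases at chr19:5824708-5845478, was at 29.7, 16.2 and 15.3 TPM in replicates 1, 2 and 3. Replicate 1 was high, and replicates 2 and 3 lay close together. The mean was 20.4 ± 8.04 TPM (SD, n = 3), and Neat1 ranked 53 by TPM among 5854 lincRNA genes (91 in the kallisto-style values introduced next) and 6098 among all genes. Of the lincRNA genes 264, and of all 55536 genes 13113, reached 1 TPM in every library. The values rest on 1103, 582 and 505 estimated counts, with exact Poisson 95% intervals of 1039 to 1170, 536 to 631 and 462 to 551, which cover counting error only and are not scaled to library size. A second quantification deposited for the same libraries, with the columns that kallisto writes and called kallisto-style here, gave 27.0, 13.7 and 12.7 TPM, in the same order. The gene and first transcript tables have the columns of RSEM and are called RSEM-style.

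Most of the Neat1 TPM was assigned to the short form. Neat1-202, the 3004-base short form with 2 exons, was at 25.2, 13.95 and 13.6 TPM in the RSEM-style table. Neat1-201, the 20771-base long form in 1 exon, was at 3.55, 1.97 and 1.39 TPM. Both forms were highest in replicate 1, and in each library the short form was above the long form. Neat1-203, a 1030-base transcript of 4 exons, reached a mean of 0.563 TPM, and Neat1-204, of 711 bases, was listed at 0 in every library of both tables. The long form held 11.0 ± 1.72% of Neat1 TPM (SD, n = 3) in the RSEM-style table and 10.4 ± 1.02% in the kallisto-style table, so the 2 quantifications differed by less than the spread between replicates. By TPM, the short form stood at 7.08, 7.08 and 9.78 times the level of the long one, a mean ratio of 7.98 ± 1.56. Only the short form is polyadenylated, and the part of RNA selection for the libraries in this ratio was not tested. Because the long form is the longer, its share of estimated counts was 48.0 ± 4.62%.

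These shares depend on how reads in the common 5′ stretch are divided. Every base of Neat1-202 outside its 166-base intron is also in Neat1-201, and the long form alone covers 17599 bases beyond the end of the short form. An unspliced short form is not among the annotated transcripts, so reads from the intron could be given only to Neat1-201 or to other overlapping models.

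**Figure D1:**
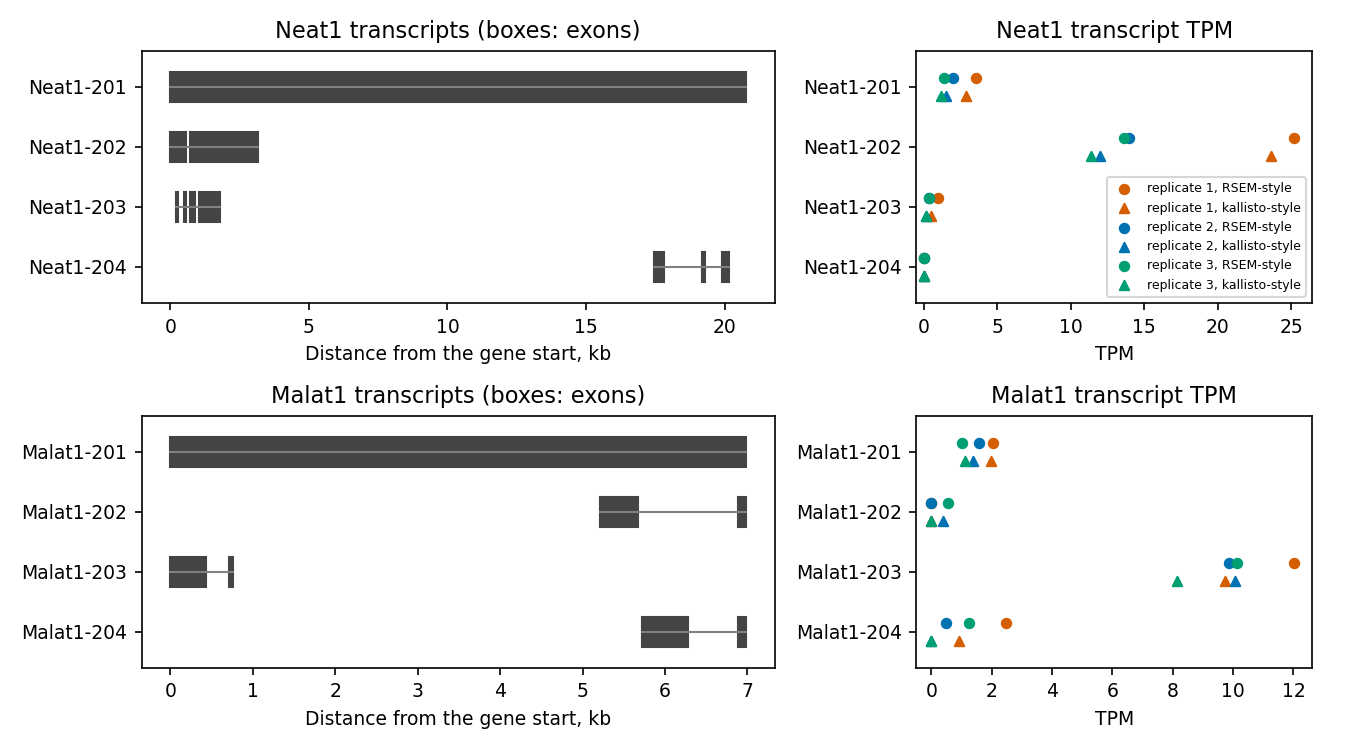
Annotated exons of each Neat1 and Malat1 transcript by distance from the gene start in kb (left) and transcript TPM on the horizontal axis (right), with circles for the RSEM-style and triangles for the kallisto-style table and 1 colour per replicate. The short form Neat1-202 lies right of the long form Neat1-201 in every library, and Malat1-203 right of Malat1-201.

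Malat1 (ENSMUSG00000092341.3), at chr19:5795690-5802672, lies 22035 bases from Neat1 on the same strand. Its levels were 16.5, 11.9 and 13.0 TPM (mean 13.8 ± 2.43, SD, n = 3), from 141, 100 and 80 estimated counts with exact Poisson 95% intervals of 119 to 166, 81.4 to 122 and 63.4 to 99.6. By TPM replicate 1 was the highest and replicate 2 the lowest. Malat1 ranked 7312 among all genes and 68 among lincRNA genes (142 in the kallisto-style table). This RNA is among the most abundant nuclear RNAs in many tissues. Here its TPM lay below that of Neat1 in each library. How RNA was selected for the libraries is not described here. The part of that selection in the level of Malat1, which has no ordinary poly(A) tail, was not tested. The ratio of Malat1 to Neat1 in TPM was 0.557, 0.734 and 0.844 (0.712 ± 0.145), and 0.687 ± 0.201 in the kallisto-style table.

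Most of the Malat1 TPM was assigned to a short model and not to the full-length RNA. Malat1-203, a 485-base model at the 5′ end of the gene, was at 12.02, 9.86 and 10.1 TPM from 26, 20.3 and 21.6 estimated counts, and it held 77.9 ± 5.03% of Malat1 TPM (83.5 ± 5.67% in the kallisto-style table). Malat1-201, the full-length transcript of 6983 bases, was at 2.05, 1.58 and 1.03 TPM from 106, 78.1 and 52.7 estimated counts, which is 11.2 ± 2.85% of the gene's TPM. By counts the full-length form was the larger, and by TPM the short model was, in every library. Malat1-203 is overlapped over 182 of its 485 bases by Gm37376, an antisense gene at chr19:5801941-5802393 with 20, 23 and 8 counts. The strand setting of the counting is not given in the sources used here, so reads from the shared bases cannot be assigned to 1 of them here, and their part in the short model's level was not tested. The other 303 bases of the model lie outside the antisense gene. Between full-length forms, Neat1-201 stood at 1.44 ± 0.256 times the TPM of Malat1-201 (1.21 ± 0.207 in the kallisto-style table).

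Of the DBHS genes, Nono had the highest RNA level, and no protein was measured. Nono (ENSMUSG00000031311.17, chrX:101429318-101448591), the X-linked partner that pairs with the other family members, was at 416, 437 and 442.5 TPM (432 ± 13.9, SD, n = 3), rank 344 among all genes. Sfpq (ENSMUSG00000028820.13, chr4:127021324-127037013), a splicing factor that long Neat1 needs to persist, was at 100.7, 82.8 and 87.6 TPM (90.4 ± 9.28). Pspc1 (ENSMUSG00000021938.12, chr14:56720710-56778316), the third member of the family, was at 22.3, 24.6 and 20.9 TPM (22.6 ± 1.87). The 3 ranges do not overlap. Pspc1 was near the level of Neat1 itself, and the range of Neat1 reached from below to above that of Pspc1.

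Tardbp (ENSMUSG00000041459.15, chr4:148612382-148627019) encodes the RNA-binding protein TDP-43, which binds UG-rich RNA and limits its own mRNA. It was at 276, 219 and 218 TPM (238 ± 33.0, SD, n = 3). Matr3 (ENSMUSG00000037236.16, chr18:35562138-35593835) encodes matrin 3, an RNA-binding protein of the nuclear matrix, and was at 217, 194 and 189 TPM (200.01 ± 15.1). Both were highest in replicate 1. Within the 7 genes the order of mean TPM was Nono, Tardbp, Matr3, Sfpq, Pspc1, Neat1 and Malat1. Tardbp and Matr3 were separated only narrowly, the lowest Tardbp value being just above the highest of Matr3. The ranges of Pspc1 and Neat1 overlapped, as did those of Neat1 and Malat1.

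**Figure D2:**
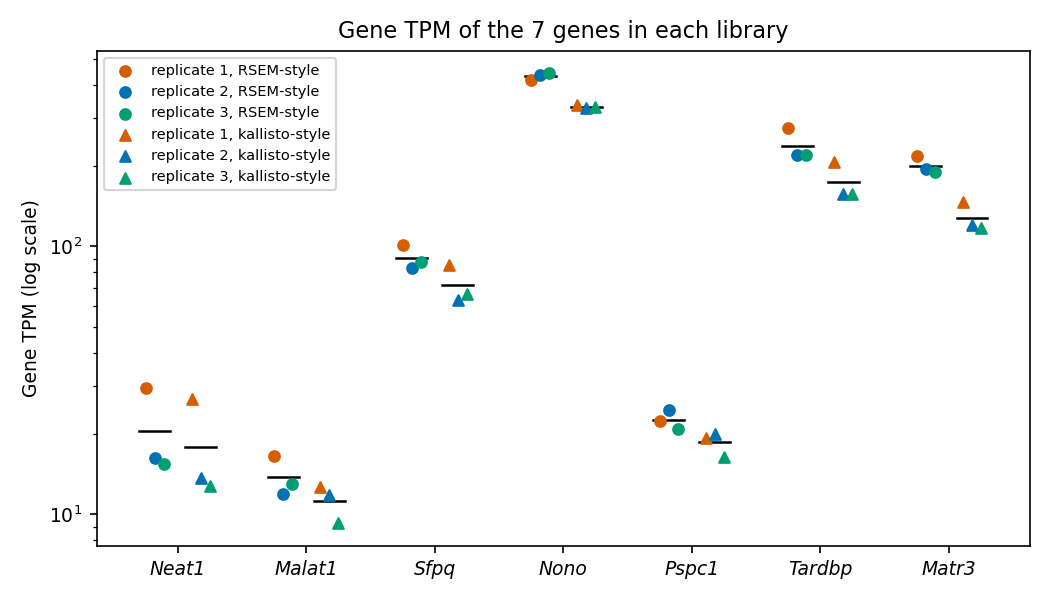
Gene TPM of the 7 genes on a log axis, with circles for the RSEM-style and triangles for the kallisto-style values of replicates 1, 2 and 3 (by colour) and short lines at the means of 3 libraries. Nono is highest at a mean of 432 TPM, and Pspc1, Neat1 and Malat1 lie between 9.26 and 29.7 TPM.

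The protein genes differed in which transcripts carried their TPM. For Nono the coding transcript Nono-201 held 92.5 ± 1.30% (SD, n = 3; 91.6 ± 2.14% in the kallisto-style table), and its retained intron models Nono-202, Nono-204 and Nono-205 were at 6.18, 5.52 and 5.57 TPM and the 345-base Nono-207 at 13.7 ± 6.59. For Pspc1 the coding Pspc1-201 held 88.8 ± 7.49% (81.9%). Sfpq-201 held 81.4 ± 2.46%, and Sfpq-206 held 16.3 ± 3.37%. Sfpq-206 rests on 69, 77 and 89.0 estimated counts, 4.22 ± 0.950% of the gene's counts. Its span overlaps that of Gm12940 on the same strand, and the part of that overlap in its level was not tested. Models of the type processed transcript, which have no open reading frame, took 18.6 ± 2.46% of Sfpq. That share was reached by 15.2% of 5392 genes with such models, whose median was 1.32%.

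Tardbp was spread over many of its 30 models. Transcripts annotated as targets of nonsense-mediated decay (NMD), the pathway that degrades mRNAs with early stop codons, held 44.5, 49.5 and 46.0% of its TPM (46.7 ± 2.54%, SD, n = 3; 50.03 ± 2.08% in the kallisto-style table). Coding transcripts held 51.5 ± 2.19%. By TPM the largest models were Tardbp-208 (NMD) with 22.95%, Tardbp-204 with 20.6%, Tardbp-228 (NMD) with 17.0% and Tardbp-214 with 15.2%. By estimated counts, which weigh length, the order differed. The coding Tardbp-204 held 26.6% of counts and the 7477-base coding Tardbp-202 held 24.1%. Tardbp-228 followed with 15.6%, Tardbp-208 with 14.1% and Tardbp-214 with 7.06%. The coding models Tardbp-202, Tardbp-205 and Tardbp-223 were at 10.4, 10.9 and 6.12 TPM. Over 3359 genes with NMD models the median share was 2.44%, and 5.36% of these genes had a share at or above that of Tardbp. Retained introns held 17.6 ± 2.11% of Matr3 and 4.32 ± 0.597% of Nono. Among 6839 genes with such models the median was 2.86%, and 16.3% reached the share of Matr3. Pspc1 had an NMD share of 13.0% in replicate 1 and 0% in the others in the RSEM-style table, and of 15.3, 11.9 and 1.22% in the kallisto-style table, so the tables differed most in replicate 2.

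**Figure D3:**
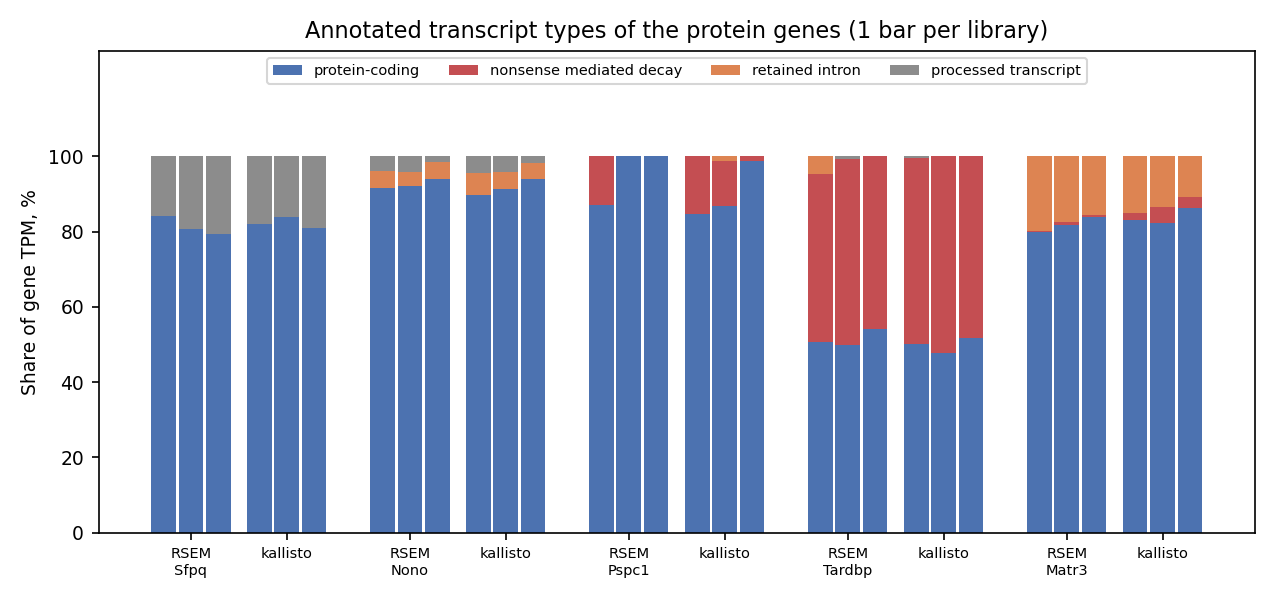
Percent of each protein gene's TPM in coding, NMD, retained intron and processed transcript models, as stacked bars with 1 bar per library in each of the RSEM-style and kallisto-style tables. Tardbp divides almost evenly between coding models (mean 51.5%) and NMD models (46.7%), and Nono is mostly coding.

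Replicate 1 was compared with the mean of replicates 2 and 3 on the log2 CPM scale, after TMM normalization, which sets the median gene near 0 (-0.0091 over 7584 genes of at least 20 CPM, with 5th and 95th percentiles of -0.22 and 0.26). Neat1 was 0.91 higher, a 1.88-fold difference, and 1 of these genes was higher still. Malat1, whose mean CPM is below that level, was 0.55 higher, and 18 of the 7584 genes exceeded it. Neat1 therefore lay in the upper end of the range, as a description of libraries in which the spread of Neat1 led to its choice. Malat1, at 80 to 141 counts, has more counting error than these genes, so its place among them is not a like comparison. With kallisto-style counts Malat1 was 0.44 higher. The protein genes stood closer to the median gene than these: Sfpq 0.23, Tardbp 0.21, Matr3 0.03, Nono -0.17 and Pspc1 -0.27. Pspc1 was highest in replicate 2 and lay below the 5th percentile, with 1.77% of the 7584 genes lower. Sfpq and Tardbp lay above 92.8% and 91.3% of those genes.

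Scaling to the ERCC spike-ins, RNAs added in known amounts, moved the median of the 7584 genes of at least 20 CPM to 0.18. On that scale Neat1 was at 1.10, Malat1 0.73, Sfpq 0.41, Tardbp 0.39, Matr3 0.21, Nono 0.02 and Pspc1 -0.09. The sign of Nono turned between the scalings, and the other 6 kept theirs. Both Neat1 forms took part, here as plain TPM without TMM or spike-in scaling. Neat1-201 was 2.15-fold and Neat1-202 1.83-fold higher in replicate 1 in the RSEM-style table, and 2.14-fold and 2.02-fold in the kallisto-style table. For Malat1, also by TPM in the RSEM-style table, the full-length form was 1.61-fold and Malat1-203 was 1.203-fold higher. Long RNAs leaned the same way: 938 genes with an effective length of at least that of Neat1 (4707 bases) had a median of 0.11, and among them Neat1 had the highest value. The part of RNA length in the value of Neat1 was not tested. Summed levels of the fibroblast markers were 2.36, 2.05 and 1.39 TPM. Those of the pluripotency genes and of the differentiated cell genes were also highest in replicate 1. Of the pluripotency genes, Pou5f1 was at 610.5, 431 and 442 TPM, while Nanog was highest in replicate 3 and Zfp42 in replicate 2. The part of cell composition in the value of Neat1 was not tested.

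**Figure D4:**
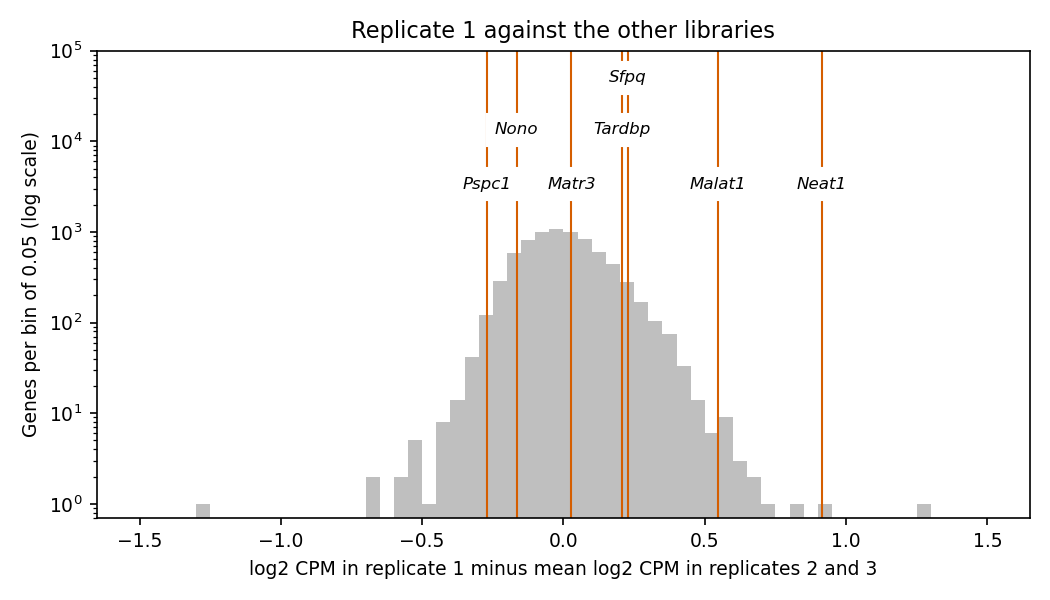
Number of genes per bin (log axis) by log2 CPM of replicate 1 minus the mean of replicates 2 and 3, over 7584 genes of at least 20 CPM, with lines at the values of the 7 genes. Neat1 at 0.91 lies beyond the 95th percentile of 0.26, and Matr3 at 0.03 lies near the centre.

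Whether the other 6 genes varied between libraries was tested, Neat1 being left as a description. By edgeR's quasi-likelihood fit across all genes, which sets each gene's spread against that of genes of like level, 0 of the 6 passed an adjusted p of 0.05, where 0.0373% of 13391 genes did. At an unadjusted p under 0.05 there were 2 of 6 by edgeR, Malat1 (0.0307) and Pspc1 (0.0183), against 4.56% of all genes. DESeq2 marked 0 of the 6 as dispersion outliers. The spread was beyond counting error for 5 of the 6 by a chi-square test against Poisson, adjusted over all genes (12.4% of which were called, and 26.8% of the 4645 genes of at least 50 CPM). The adjusted chi-square p was 0.0118 for Malat1, 1.44e-06 for Sfpq, 7.24e-13 for Nono, 5.07e-05 for Pspc1 and 6.56e-07 for Tardbp, and it was 0.419 for Matr3. Without replicate 1, 0 of the 6 were called, against 0.2% of all genes. With the ERCC scaling Nono was not called (0.615) and Matr3 was (3.82e-11), where 4644 of 13391 genes were called.

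The genes nearest to Neat1 in their pattern, by the Euclidean distance of centred log2 CPM over the 3 libraries, were Gabbr1 (0.174), 2700081O15Rik (0.220), Ptpn23 (0.221), Zfhx2 (0.243) and Mbd6 (0.256), out of 7584 genes. Gabbr1, a GABA-B receptor subunit, was at 39.7, 27.0 and 22.0 CPM, where Neat1 was at 105, 61.3 and 50.9 CPM. All 5 were highest in replicate 1 and lowest in replicate 3. With 3 libraries such a pattern has 2 free values, so likeness is a weak description.

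The genes of other paraspeckle proteins, a list of 28, were all expressed as RNA. Hnrnpa1 (1556 ± 22.8 TPM, SD, n = 3), Hnrnpk (857 ± 18.1) and Hnrnpf (692 ± 17.3), which bind nascent RNA, were the highest, and the zinc finger gene Zc3h6 (1.62 ± 0.111) was the lowest. Hnrnpk is known to hold back the early poly(A) site of Neat1 that Nudt21 and Cpsf6, parts of a 3′ processing factor, favour. Nudt21 was at 187 ± 9.01 TPM and Cpsf6 at 67.2 ± 6.23, so that the RNAs of all 3 regulators were above both Neat1 forms. By edgeR 0 of 28 varied (5 at an unadjusted p under 0.05, where 4.56% of all genes did), and by chi-square 11 of 28 did, against 12.4% of all genes and 26.8% of those of at least 50 CPM. Without replicate 1 the chi-square test called 0 of 28, against 0.2% of all genes. With ERCC scaling it called 24 of 28, where it called 4644 of 13391 genes over all. The list's median in replicate 1 against the others was 0.10 on the log2 scale, against -0.0091 for the 7584 genes of at least 20 CPM. The list also holds genes below that level. The members Taf15, an RNA-binding protein, at 13.99, 6.89 and 8.58 TPM (0.85; adjusted chi-square p 8.64e-06), and Ahdc1, at 25.3, 14.8 and 18.3 TPM (0.49; 2.20e-09), came nearest to Neat1. They were picked after their values were seen, and by edgeR their adjusted p was 0.646 and 0.613.

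The 2 quantifications of the same libraries were compared by limma on log2(TPM + 1), which understates the change of low genes. At a required difference of 1 and an adjusted p under 0.05, 0 of the 7 genes were called, where 13.1% of 14738 genes were (2.37% with the RSEM-style value higher), and 6 of the 7 had an adjusted p under 0.05 with no required difference, as did 78.1% of all genes (Malat1 0.0544). The kallisto-style value was lower for each gene: -0.21 for Neat1, -0.27 for Malat1 and Pspc1, -0.34 for Sfpq, -0.38 for Nono, -0.46 for Tardbp and -0.65 for Matr3, against a median of -0.25 for all genes.

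Of 73 annotated transcripts of the 7 genes, 36 were expressed well enough to test and 4 were called, all of Matr3, where 19.2% of 28549 transcripts were called. Matr3-202 (-1.88 ± 0.202, SE, limma adjusted p 0.00694), Matr3-205 (-1.24 ± 0.0705, 0.00189) and Matr3-208 (-2.83 ± 0.480, 0.0151) were higher in the RSEM-style table, against 6.89% of all transcripts. Matr3-213 (1.09 ± 0.0554, 0.00154) was higher in the kallisto-style table, against 12.3%. The shares of the major forms also differed between the tables: Matr3-207 held 46.2 ± 2.47% of Matr3 in the RSEM-style table and 36.1 ± 2.09% in the other, and Matr3-201 held 9.95 ± 1.32% and 30.8 ± 2.87%. No transcript of Neat1, Malat1 or the DBHS genes was called.

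**Figure D5:**
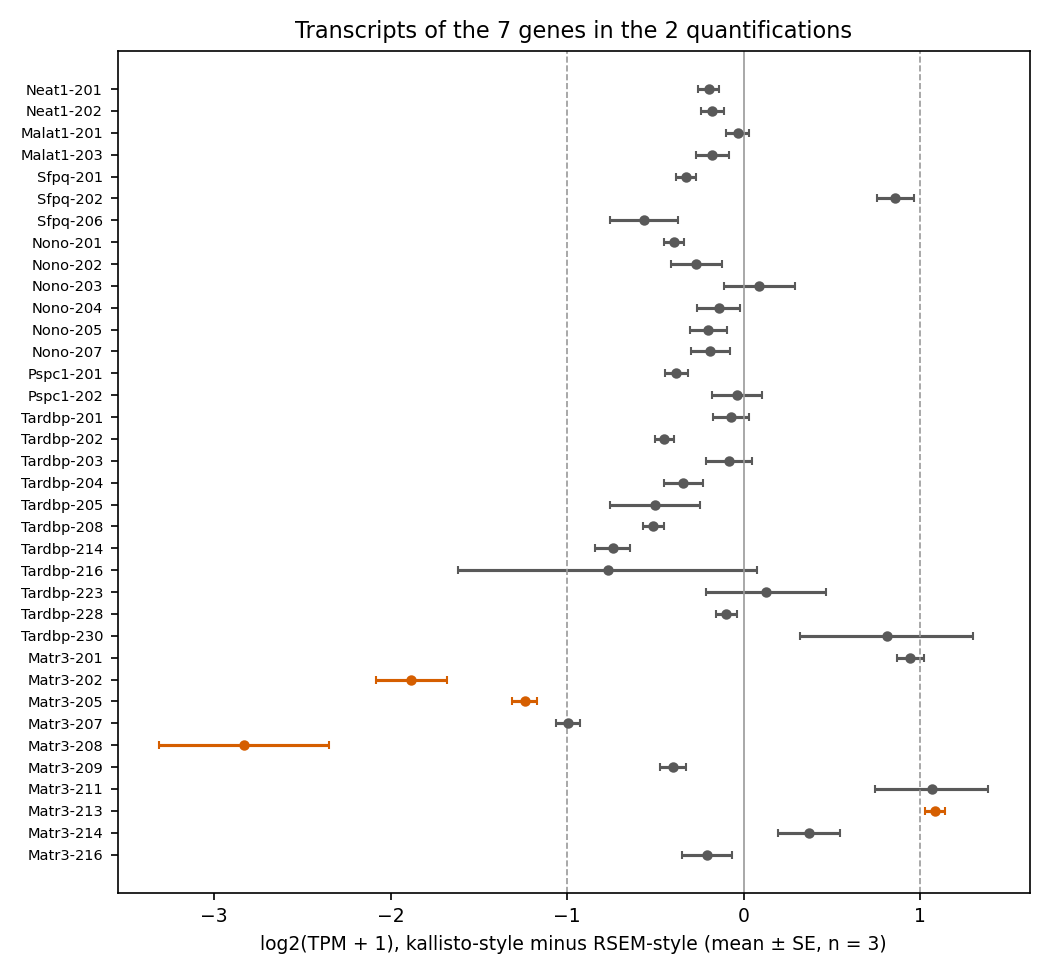
Difference of log2(TPM + 1), kallisto-style minus RSEM-style, on the horizontal axis for each tested transcript of the 7 genes, as the mean of 3 libraries with its SE, with dashed lines at a difference of 1 in either direction. The 4 coloured points passed the limma test, and all belong to Matr3, from -2.83 to 1.09.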

How the data were processed

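Total RNA of F121-9 cells was measured in 3 libraries on mm10 with GENCODE M21, per the submitters' processing notes. The authors deposited estimated counts (expected counts, not normalized) per gene and transcript, and TPM values, scaled over all features. For the aligner, the quantifiers and the use of strand, names and settings were not given in the sources used here. Counts were rounded; 96 ERCC features (1.89% of counts) and 26248 tRNA-numbered features (0.000147%) stayed out of library sizes and tests. The spread between libraries was tested with edgeR 4.0.16 (filterByExpr, TMM, an intercept-only quasi-likelihood fit) with DESeq2 1.42.0 as an alternative, and with a chi-square test against Poisson. Quantifications were compared with limma 3.58.1 in R 4.3.3 with a pseudocount of 1 and Benjamini-Hochberg adjustment at 0.05. Each test was checked on simulated counts or levels. Tables were made in Python 3.11.15 (pandas 2.3.3, scipy 1.17.1). Members and lists were chosen with earlier results of these data known. Named were the 7 genes, all Neat1 transcripts, other members' transcripts of at least 5 TPM, of each list the 3 highest, the lowest and those called, the 5 genes nearest to Neat1, and genes overlapping a member. The lists were other paraspeckle proteins, nuclear speckle proteins, RNase P and tRNA end processing, other long noncoding RNAs, and markers of pluripotent, fibroblast and differentiated cells. Alternatives were scaling (size factors, ERCC), filters, pseudocounts, kallisto-style values and leaving out each library.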

Additional observations from a re-analysis of the deposited data

How the results depend on the processing

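Without a required difference, 6 of the 7 genes (0 with it) and 14 transcripts (4 with it) differed between quantifications, and over all genes and transcripts 11507 and 17986 did in place of 1932 and 5473, with 9096 of 11507 and 12824 of 17986 higher in the RSEM-style table in place of 349 and 1966. Leaving out each library gave 0 to 4 genes beyond counting noise, 0 being without replicate 1. The share of long Neat1 was 10.5 to 12.04% with a library left out and 48.0% by estimated counts, which weigh length; the ratio of Malat1 to Neat1 was 0.645 to 0.789 and, by counts, 0.153. Over all genes edgeR called 5, against 2 with ERCC scaling, 34 with no filter, 16 with kallisto-style counts and 7 to 14 with a library left out, and DESeq2 marked 75; the chi-square test called 1656, against 4644 with ERCC scaling, 2800 with kallisto-style counts and 27 without replicate 1. For replicate 1 against the others, an alternative chosen after seeing the data, ERCC scaling, turned Nono from -0.17 to 0.0192, and kallisto-style counts, also added then, turned none of the 7. The cause of these changes was not tested. The other 32 alternatives of main results kept counts within 1.5 times (3 to 5 transcripts; 4 or 5 genes beyond counting noise, Matr3 replacing Nono with ERCC scaling) or moved a value by less than 1 SD. No paired analysis was possible because there is only 1 group for the replicate numbers to link; the quantifications were compared within each library. Depth limits Malat1, at 80 to 141 counts.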

Other observations

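All 14 genes of RNase P and tRNA end processing were expressed, RNase P being the part that cuts the 3′ ends of long Neat1 and of Malat1. Rpp30, a protein subunit of RNase P, was at 125 TPM, Pop5, another subunit, at 120.5, and Trnt1, the enzyme that adds CCA to tRNAs, at 107. The lowest was Elac1, a tRNA 3′ endonuclease, at 2.36 TPM, and Rpph1, the RNA of RNase P, was at 13.2. Over all genes the chi-square test called 12.4% (26.8% of those of at least 50 CPM), and 4.56% had an unadjusted edgeR p under 0.05. By edgeR 0 of 14 varied between libraries (0 at an unadjusted p under 0.05), and by the chi-square test 1 did, Trnt1 (adjusted p 0.000569). The median in replicate 1 against the others was -0.05 on the log2 scale. All 18 nuclear speckle genes were expressed, led by the splicing factors U2af1 (734 TPM), Srsf5 (286) and Srsf7 (275), with Luc7l2 (29.3) lowest. By the chi-square test 10 of 18 varied and by edgeR 0 (5 at an unadjusted p under 0.05), and the median in replicate 1 was 0.11. Luc7l2 differed between the quantifications, being higher in the kallisto-style table by 1.07 ± 0.0673 (SE, limma adjusted p 0.000364). Of 16 other long noncoding RNAs 10 were expressed. Gas5 (526 TPM), Tug1 (325) and Snhg1 (157) were far above Neat1, and Jpx had 0 counts. By the chi-square test 3 of 12 varied and by edgeR 0 (2 at an unadjusted p under 0.05), with a median of 0.34 in replicate 1. Without replicate 1 the chi-square test called 0 genes of each of these 3 lists, where it called 27 of 13489 genes (0.2%) over all. With ERCC scaling it called 0 of 14, 18 of 18 and 8 of 12, where it called 4644 of 13391 genes over all. Ftx, a noncoding RNA of the X inactivation centre, was higher by 6.15 in the kallisto-style table, as was Krt7, a keratin of the differentiated cell list, by 1.38 (limma adjusted p 8.71e-05).

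Several genes overlap the 7. Gm12940 shares the strand of Sfpq and was at 58.4 ± 3.49 TPM (SD, n = 3), and AC121821.3, antisense to Matr3, was at 99.9 ± 9.95 TPM. Masp2, opposite Tardbp, was at 10.1, 5.22 and 3.51 TPM, highest in replicate 1. On the strand of Matr3, Gm28285 was at 3.43 TPM and Gm36989 at 0.86. The small genes Gm27533, Gm27505 and Gm28006 within Neat1 and Gm27694 within Malat1 were listed at 0 TPM. The pseudogene Matr3-ps2, on chromosome 8, had 0 counts. How the counting divided reads where these genes overlap a member is not given in the sources used here.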
